A study of Mus musculus with 6 samples.

Results

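The annexins are a family of calcium-dependent, phospholipid-binding proteins, and 8 of their genes were taken by symbol from the deposited liver expression table: Anxa1, Anxa2, Anxa3, Anxa4, Anxa5, Anxa6, Anxa7 and Anxa11. All 8 were found among the 24411 rows of the table, and all 8 entered the test. The table holds 6 mouse liver libraries, 3 of a control group labelled WT and 3 of a group labelled Alb-Cre+/+;Sox9 flox/flox, called Sox9 cKO here, in which Cre is expressed from the albumin promoter to remove the transcription factor SOX9 from liver epithelial cells. Albumin is made by hepatocytes and by their progenitors, so the deletion is not limited to bile duct cells. The labels give neither age nor sex, do not say whether the controls carried floxed alleles, and do not state that each library came from a separate animal, so every p-value measures the spread between these libraries. The comparison asked how the annexin transcripts of whole liver differ when SOX9 is removed from the liver epithelium.

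Each annexin has a conserved core that docks on negatively charged membrane lipids when calcium rises, and a variable N-terminus that selects its partners. Annexin A1 and annexin A2 bind small S100 proteins through that N-terminus, while annexin A7 and annexin A11 carry long N-termini that bind penta-EF-hand proteins such as sorcin and ALG-2. The family acts in membrane repair, vesicle traffic and membrane-cytoskeleton contacts, and annexin A1 is also a secreted brake on inflammation. In whole liver these transcripts come from hepatocytes, bile duct cells, stellate cells, endothelial cells and blood-derived cells together. In such bulk RNA, fewer cells of a type and less RNA per cell cannot be told apart.

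Promoter sequences are shown for the pair of annexins with the lowest levels relative to control, Anxa1 and Anxa2, and for Anxa11, whose groups overlapped, so that the sequence before the start of genes with different behaviour can be compared. Each is the 250 bases before the RefSeq start (GRCm38.p6, the assembly of mm10), printed 5′ to 3′ on the strand of the gene, with capitals marking matches to any of 4 motifs searched on both strands: TATAAA (the TATA box), GGGCGG (the GC box), AACAAT (the core bound by SOX factors) and TGANTCA (the AP-1 site).
Anxa1 (chr19:20390672-20390921, minus strand): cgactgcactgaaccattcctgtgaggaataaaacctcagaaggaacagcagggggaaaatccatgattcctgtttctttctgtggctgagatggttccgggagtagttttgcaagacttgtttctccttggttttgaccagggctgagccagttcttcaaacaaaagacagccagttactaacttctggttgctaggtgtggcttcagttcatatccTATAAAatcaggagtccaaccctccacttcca
Anxa2 (chr9:69453433-69453682, plus strand): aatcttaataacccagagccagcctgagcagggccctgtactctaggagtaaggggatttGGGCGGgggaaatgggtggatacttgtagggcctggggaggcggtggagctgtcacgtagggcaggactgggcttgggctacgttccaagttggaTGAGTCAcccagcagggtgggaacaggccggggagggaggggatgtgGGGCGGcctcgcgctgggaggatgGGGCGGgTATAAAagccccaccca
Anxa11 (chr14:25841905-25842154, plus strand): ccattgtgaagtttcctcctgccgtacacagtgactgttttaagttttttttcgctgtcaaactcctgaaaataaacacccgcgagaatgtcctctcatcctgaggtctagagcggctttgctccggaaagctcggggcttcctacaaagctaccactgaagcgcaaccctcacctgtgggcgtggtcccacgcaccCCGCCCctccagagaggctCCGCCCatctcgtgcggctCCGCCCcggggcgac

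RefSeq promoter windows were found for 6 of the 8 members, 8 windows in all, since Anxa4 and Anxa7 have more than 1 start. Anxa3, 1 of the 3 annexins that fell (below), and Anxa6 had no window. Anxa1 had 1 TATA motif beginning 32 bases before the start, and Anxa2 had 1 beginning 17 bases before it. No window of Anxa4, Anxa5, Anxa7 or Anxa11 held the TATA motif, against 12.4% of 32851 windows of the same length over all genes. The GC box was found in Anxa2, Anxa7 and Anxa11 (32.7% of all windows), and Anxa2 also held 1 AP-1 match 95 bases before its start (6.75% of all windows). The exact letters AACAAT, searched as the SOX core, were in 0 of the 8 windows, against 9.42% of all windows. Other forms of a SOX site were not searched. For every motif, 8 windows are too few to tell these counts from the share over all windows. The bases shown for Anxa1 lie within an exon of a longer GENCODE transcript of that gene, and the last 63 of those shown for Anxa2 lie in a GENCODE exon. A match describes the letters of the window and nothing more.

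Levels are in TPM, which divides a gene's reads by transcript length and scales each library to the same total, so that genes can be compared within a library. Among controls, Anxa5 (121.6 TPM) and Anxa6 (107.2 TPM) were the most abundant annexin transcripts, and their ranges overlapped. They were followed by Anxa7 (64.7 TPM), Anxa4 (56.9 TPM), Anxa2 (47.5 TPM) and Anxa11 (21.4 TPM), each separated from its neighbours in all 3 controls. Anxa1 (9.72 TPM) and Anxa3 (8.37 TPM) were lowest, with overlapping ranges. In Sox9 cKO livers Anxa6 (79.8 TPM), Anxa5 (75.0 TPM) and Anxa7 (61.9 TPM) came first, with ranges that overlapped from each to the next. Anxa2 (22.4 TPM) no longer stood apart from Anxa11 (19.3 TPM), and Anxa1 (3.53 TPM) and Anxa3 (4.24 TPM) again came last with overlapping ranges.

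Changes were tested over all genes with limma on log2(TPM + 0.5), and a gene was called when its p-value, adjusted for 12539 tested genes by the Benjamini-Hochberg method, was below 0.05. Of the 8 annexins 3 fell (Anxa1, Anxa2 and Anxa3), 0 rose and 5 did not pass. By limma's unadjusted p below 0.05, 6 were lower and 0 higher, and over all tested genes 27.2% were lower and 2.57% higher by that measure. Over all tested genes 8.76% were called lower. The median log2 fold change (Sox9 cKO minus control) was -0.57 over the annexins and -0.24 over all tested genes, so each change below also stands against a general shift of -0.24. In 6 of the 8 annexins every Sox9 cKO library lay below every control library, an arrangement found in 33.7% of all tested genes. After each library was centred on its median gene, Anxa1 and Anxa2 still fell (adjusted p = 0.0171 and 0.0378), Anxa3 did not pass (adjusted p = 0.0813), and 2.04% of tested genes were called lower.

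**Figure D1:**
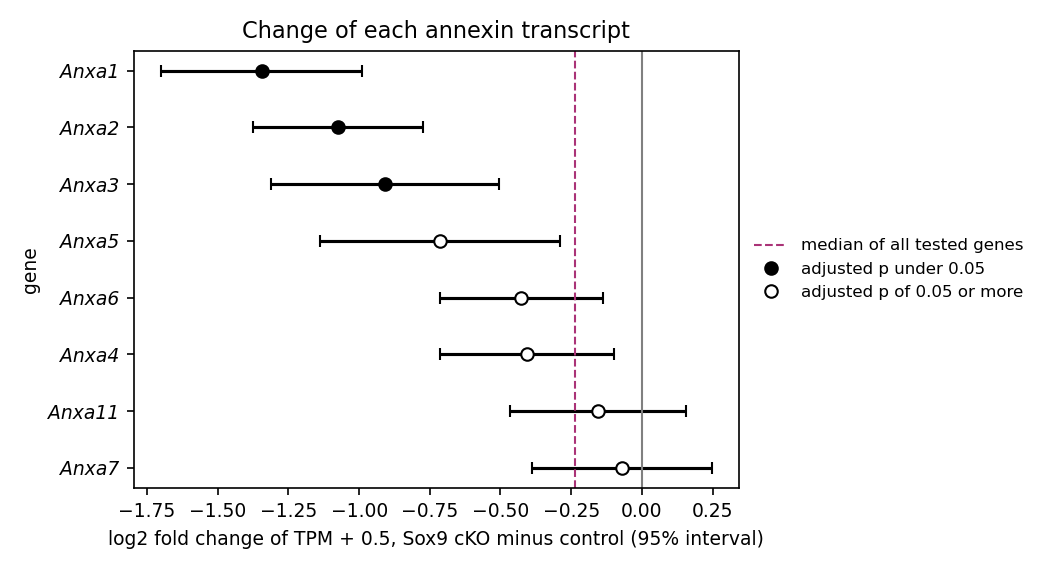
Log2 fold change of each annexin (x axis, on log2 of TPM + 0.5, Sox9 cKO minus control, n = 3 libraries each) with its 95% interval from limma. Filled points passed an adjusted p of 0.05 (Anxa1, Anxa2 and Anxa3), unfilled points did not, and the dashed line is the median of all tested genes at -0.24.

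The libraries also differed in ways that go with the groups. Sox9, the targeted gene, measured 1.69, 1.43 and 1.43 TPM in control livers and 0.19, 0.40 and 0.68 TPM in Sox9 cKO livers (log2 fold change -1.16, SE 0.25, limma adjusted p = 0.0323). Xist, an RNA of the inactive X chromosome, reached 114 and 123 TPM in the first and second control libraries and at most 0.02 TPM in the other 4, where the Y-linked Eif2s3y was at 47.6 to 51.6 TPM. Among controls, only replicate 3 has the sex markers of the Sox9 cKO libraries. Summed marker levels also moved. The 8 Kupffer cell and macrophage markers summed to 452 to 755 TPM in control livers and 138 to 326 TPM in Sox9 cKO livers, the 5 neutrophil markers with values to 33.1 to 76.4 and 1.59 to 8.80 TPM, and the 8 stellate cell and fibroblast markers to 323 to 348 and 100 to 195 TPM. The 7 endothelial markers summed to 154 to 176 and 94.3 to 135 TPM, the 6 bile duct markers to 67.4 to 117 and 45.1 to 66.7 TPM, and the 7 hepatocyte markers, among them albumin, to 134399 to 143084 and 104540 to 118151 TPM. Most of the hepatocyte sum was Alb, with group means of 106683 and 78273 TPM (limma adjusted p = 0.330). Ttr was at 120% and Tat at 108% of the control mean. Asgr1 (99.5%), Cyp2e1 (93.8%), Apoa1 (84.3%) and Cps1 (82.2%) were below theirs, and none of these genes passed. Most of the bile duct sum was Spp1, whose groups overlapped. By the same limma test 5 of 8 tested macrophage, 4 of 4 neutrophil and 5 of 8 stellate markers fell. So did 2 of 7 endothelial and 2 of 6 bile duct markers (1 of them Sox9). Of all tested genes 8.76% were called lower. For hepatocyte markers 0 of 7 passed, also at an unadjusted p below 0.05, where 27.2% of all tested genes were lower. The 6 lymphocyte markers summed to 13.0 to 16.6 and 4.03 to 8.49 TPM, and 1 of 5 tested fell. The 4 mesothelial markers summed to 3.89 to 6.52 and 3.92 to 6.81 TPM, with 0 of 3 tested called. The neutrophil marker Retnlg was listed at 0 in all 3 Sox9 cKO libraries. The part of cell make-up in the annexin results was not tested.

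Among the 8 members, Anxa1 and Anxa2 changed most. Anxa1 (chromosome 19, 20373428 to 20390944), whose product dampens neutrophil recruitment through formyl peptide receptors, was at 10.8, 8.94 and 9.46 TPM in control livers and at 3.69, 3.79 and 3.10 TPM in Sox9 cKO livers. The groups were far apart, and each varied little. Means were 9.72 ± 0.943 and 3.53 ± 0.373 TPM (SD, n = 3 each), and 36.3% of the control mean remained. The log2 fold change was -1.34 (SE 0.15, 95% interval -1.70 to -0.99, limma adjusted p = 0.00571). Only 3.16% of tested genes had a change at or below that of Anxa1.

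Anxa2 (chromosome 9, 69453620 to 69491795), which encodes a protein that links membranes to actin and binds S100A10, was at 45.9, 46.9 and 49.7 TPM in control livers and at 23.6, 24.1 and 19.4 TPM in Sox9 cKO livers. All 3 Sox9 cKO values were well below the lowest control. Means were 47.5 ± 1.94 and 22.4 ± 2.60 TPM, or 47.1% of the control mean, with a log2 fold change of -1.07 (SE 0.13, 95% interval -1.38 to -0.77, limma adjusted p = 0.00668).

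**Figure D2:**
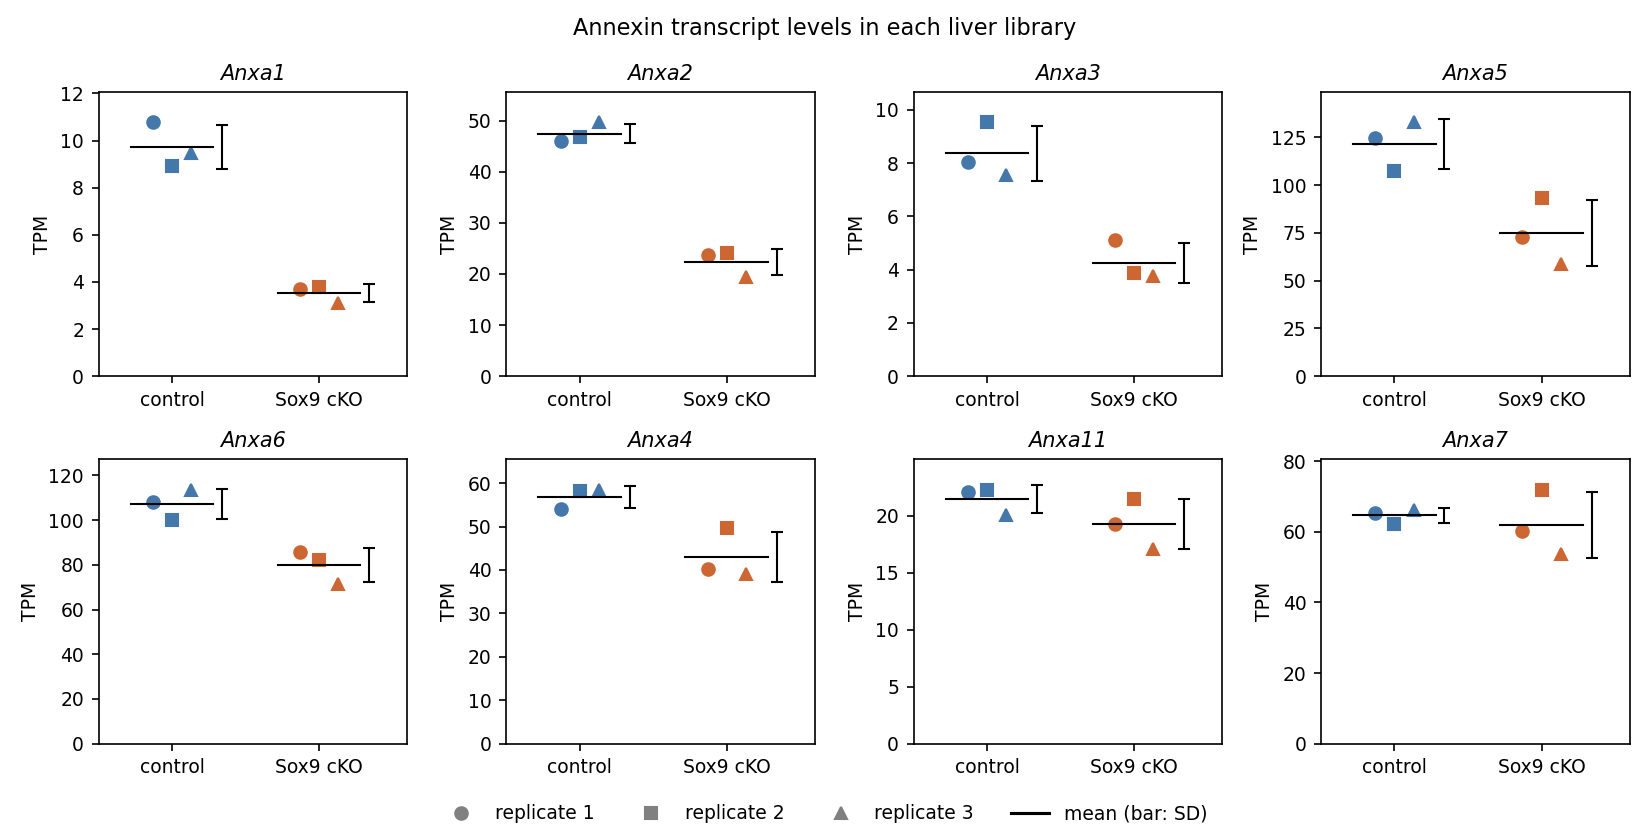
TPM of the 8 annexin genes (1 panel each, y axis from 0) in 3 control and 3 Sox9 cKO liver libraries, marked by replicate, with the mean as a line and the SD as a bar. The groups are separated in all panels but those of Anxa11 and Anxa7, and Anxa1, at 3.10 to 3.79 against 8.94 to 10.8 TPM, is the lowest relative to its controls.

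Anxa3 to Anxa6 encode annexins with short N-termini, annexin A6 having a duplicated core. Anxa3 (chromosome 5, 96793339 to 96845966), which is also made by neutrophils, was at 8.03, 9.53 and 7.56 TPM in control livers and at 5.11, 3.86 and 3.76 TPM in Sox9 cKO livers. The groups did not overlap, and 50.7% of the control mean was left. Its log2 fold change was -0.91 (SE 0.17, 95% interval -1.31 to -0.51, limma adjusted p = 0.0239). Without control replicate 1, 2 or 3 the adjusted p was 0.0852, 0.102 and 0.0631, so the call needs every control. The log2 fold changes in those fits were -0.93, -0.82 and -0.98. Genes called over the whole table numbered 220, 178 and 322 there, against 1202 with every library.

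Anxa5 (chromosome 3, 36448923 to 36475894), whose product forms lattices on exposed phosphatidylserine, was at 125, 107 and 133 TPM in control livers and at 73.1, 93.3 and 58.8 TPM in Sox9 cKO livers. Sox9 cKO replicate 2 came closest to the controls. The log2 fold change of -0.71 (SE 0.18, 95% interval -1.14 to -0.29) missed the threshold, with a limma adjusted p of 0.0503. Without Sox9 cKO replicate 2 it was -0.88 (adjusted p = 0.0266). Leaving out any other single library did not give a call (limma adjusted p 0.0728 to 0.152).

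Anxa4 (chromosome 6, 86736840 to 86793584), an annexin common in epithelia, was at 54.0, 58.1 and 58.4 TPM in control livers and at 40.2, 49.6 and 39.1 TPM in Sox9 cKO livers. The groups did not overlap, but the log2 fold change of -0.41 (SE 0.13, 95% interval -0.71 to -0.10) gave a limma adjusted p of 0.0898. Leaving out Sox9 cKO replicate 2, again the highest of its group, gave -0.51 (adjusted p = 0.0418). Without any other single library Anxa4 did not pass (limma adjusted p 0.144 to 0.249). Anxa6 (chromosome 11, 54979108 to 55033445), a membrane scaffold protein abundant in liver, was at 108, 99.95 and 113 TPM in control livers and at 85.8, 82.4 and 71.2 TPM in Sox9 cKO livers. Here too the groups were apart, with a log2 fold change of -0.43 (SE 0.12, 95% interval -0.71 to -0.14, limma adjusted p = 0.0689). Relative to the shift of all genes, the differences were -0.17 for Anxa4, -0.19 for Anxa6 and -0.48 for Anxa5.

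Both annexins with long N-termini had overlapping groups. Anxa7 (chromosome 14, 20455260 to 20480133), also called synexin, was at 65.4, 62.2 and 66.3 TPM in control livers and at 60.3, 71.9 and 53.6 TPM in Sox9 cKO livers, which surrounded the controls. Its log2 fold change was -0.07 (SE 0.14, 95% interval -0.39 to 0.25, limma adjusted p = 0.759). Anxa11 (chromosome 14, 25842156 to 25886804), whose product tethers RNA granules to lysosomes, was at 22.0, 22.3 and 20.03 TPM in control livers and at 19.3, 21.4 and 17.1 TPM in Sox9 cKO livers. Its log2 fold change was -0.15 (SE 0.13, 95% interval -0.46 to 0.16, limma adjusted p = 0.467). The sign of both differences depended on scaling: after median centring they were 0.20 for Anxa7 and 0.12 for Anxa11, neither passing.

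The unequal changes altered the make-up of the annexin transcript pool. The 8 genes summed to 439, 415 and 458 TPM in controls and to 311, 350 and 266 TPM in Sox9 cKO livers, or 70.7% of the control mean. Anxa2 made up 10.9% ± 0.411 of that sum in controls and 7.26% ± 0.353 in Sox9 cKO (SD, n = 3 each), and Anxa1 2.22% ± 0.203 and 1.14% ± 0.0551. Anxa7 made up 14.8% ± 0.264 and 20.02% ± 0.574, and Anxa11 4.92% ± 0.5004 and 6.25% ± 0.153. The groups did not overlap for these 4 shares or for that of Anxa3, and they overlapped for Anxa4, Anxa5 and Anxa6. Shares sum to a fixed total, so a smaller share of some members raises the others.

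**Figure D3:**
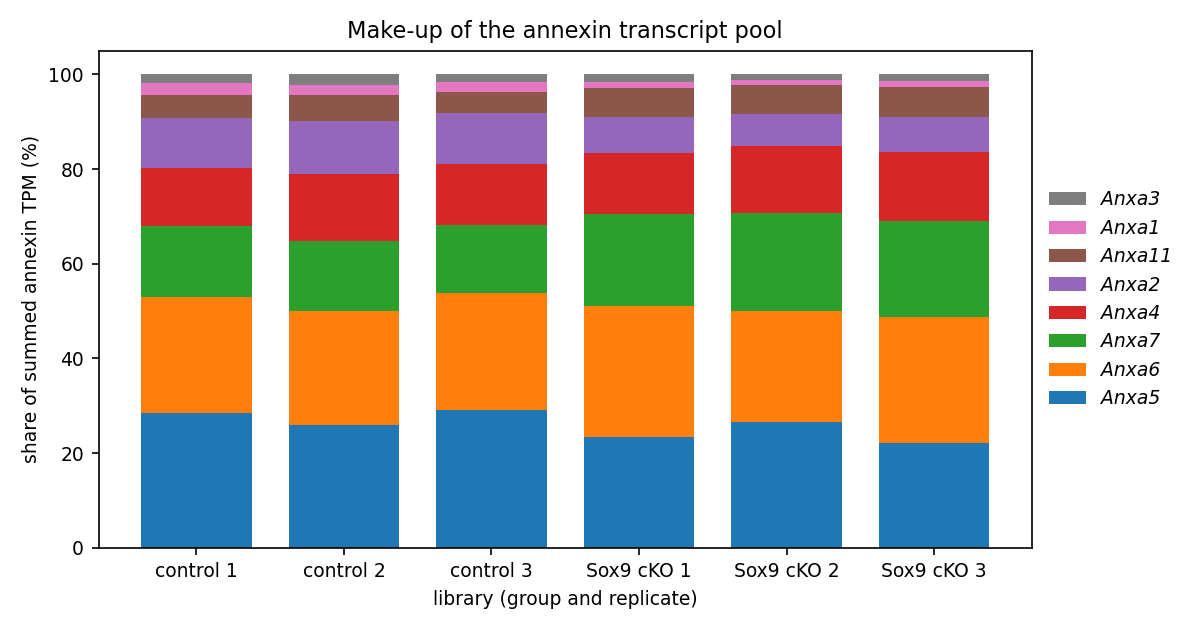
Share of each annexin gene in the summed TPM of the 8 genes (y axis, percent) in each of the 6 liver libraries. The Anxa7 band is wider in all 3 Sox9 cKO libraries (19.4% to 20.5%) than in the controls (14.5% to 15.0%), and the Anxa2 band is narrower.

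A ratio of 2 genes within a library does not change with the factor by which the library is scaled. The TPM ratio of Anxa2 to Anxa7 was 0.702, 0.753 and 0.748 in controls and 0.391, 0.336 and 0.362 in Sox9 cKO. The ratio of Anxa1 to Anxa7 was 0.165, 0.144 and 0.143 in controls and 0.0612, 0.0527 and 0.0578 in Sox9 cKO. Both ratios were lower in all 3 Sox9 cKO libraries, with log2 differences of -1.02 and -1.39. The two-sided exact permutation p was 0.1 each, the smallest that 3 against 3 libraries allow. Among the annexins tested, Anxa1 and Anxa2 had the lowest log2 fold changes (-1.34 and -1.07) and Anxa7 the smallest in size (-0.07). Both ratios therefore restate the changes of members already seen to differ most, and their p-values are not a separate test. The ratio of Anxa7 to Anxa11 was 3.02 ± 0.263 in controls and 3.21 ± 0.127 in Sox9 cKO, with overlapping groups (exact permutation p = 0.4). These 3 ratios are among 7 computed.

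The same members were set against control replicate 3, the control without Xist. For Anxa1, Anxa2, Anxa3, Anxa4, Anxa5 and Anxa6 all 3 Sox9 cKO libraries lay below that library, by mean log2 differences of -1.31, -1.14, -0.78, -0.45, -0.85 and -0.51. The share of all tested genes with that arrangement was not computed. Of the hepatocyte markers, Alb, Apoa1, Cps1 and Tat had it, and Ttr, Asgr1 and Cyp2e1 did not. Control replicate 3 differed from the mean of the other controls by -0.05 for Anxa1 and 0.10 for Anxa2, and by at most 0.20 in size for any of the 8 annexins. In limma with Xist status as a term, the log2 fold changes of Anxa1 and Anxa2 were -1.31 (adjusted p = 0.0693) and -1.14 (adjusted p = 0.0619). In that fit 0 of 8 annexins passed, while 5 had an unadjusted p below 0.05. The share of all tested genes at that level was not computed for it. Leaving out control replicates 1 and 2 gave the same log2 fold changes for Anxa1 and Anxa2. Both fits estimate the change from control replicate 3, the 1 control library with the sex markers of the Sox9 cKO group. They and the differences from that library given above are therefore 1 comparison, not separate checks. Among controls, replicate 3 had the lowest macrophage sum (452 TPM against 724 and 755 TPM) and the highest neutrophil (76.4 TPM against 33.1 and 36.0 TPM) and stellate cell sums (348 TPM against 329.5 and 323 TPM). Among Sox9 cKO libraries, replicate 2 had the lowest sums of macrophage (138 TPM), stellate cell (100 TPM) and neutrophil (1.59 TPM) markers. Its endothelial (94.3 TPM), bile duct (45.1 TPM) and lymphocyte (4.03 TPM) sums were also the lowest, while its hepatocyte and mesothelial sums were not. Anxa1, Anxa2, Anxa4, Anxa5, Anxa7 and Anxa11 were highest of the Sox9 cKO libraries in replicate 2, while Anxa3 and Anxa6 were highest in replicate 1. Replicate 1 was close behind for Anxa1 (3.69 against 3.79 TPM) and Anxa2 (23.6 against 24.1 TPM). The part of these marker levels in the annexin values was not tested.

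The remaining family members were scarce. Anxa13, an annexin of gut and kidney epithelium, was the most abundant of them, at 2.39, 0.86 and 1.31 TPM in control livers and at 1.02, 0.94 and 1.41 TPM in Sox9 cKO livers (log2 fold change -0.26, SE 0.30, limma adjusted p = 0.599). Anxa9 was at 0.32 to 1.64 TPM in control livers and 0.37 to 0.98 TPM in Sox9 cKO livers and did not pass either. Anxa8 was at no more than 0.72 TPM and was not tested, and Anxa10 was listed at 0 in all 6 libraries.

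Known partners of the annexins were counted from lists of 30 genes, of which 27 were tested. Among them 3 fell in limma (S100a11, S100a4 and Fpr2) and 0 rose, against 8.76% of all tested genes called lower. At an unadjusted p below 0.05, 11 partners were lower and 1, S100a10, was higher, against 27.2% and 2.57% of all tested genes. The partners had a median log2 fold change of -0.42 against -0.24 over all tested genes. S100a11, whose product binds annexin A1 and annexin A2, was at 52.8, 46.7 and 54.6 TPM in control livers and at 19.6, 28.1 and 17.9 TPM in Sox9 cKO livers (log2 fold change -1.24, SE 0.18, limma adjusted p = 0.0116). Without control replicate 1 the adjusted p of S100a11 was 0.0531, and after median centring 0.0574. S100a4, a calcium-binding protein of motile mesenchymal and myeloid cells, was at 8.38, 5.03 and 8.50 TPM in control livers and at 1.24, 1.03 and 0.39 TPM in Sox9 cKO livers (-2.51, SE 0.31, adjusted p = 0.00668). Both genes were lower in every Sox9 cKO library.

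S100a10, the light chain that pairs with annexin A2 at the plasma membrane, did not share the direction of Anxa2. It was at 214, 202 and 113 TPM in control livers and at 324, 400 and 194 TPM in Sox9 cKO livers. The groups overlapped, and control replicate 3 was the lowest library. The log2 fold change of 0.79 (SE 0.32) did not pass (limma adjusted p = 0.150). Within libraries the TPM ratio of S100a10 to Anxa2 was 4.65, 4.31 and 2.28 in controls and 13.7, 16.6 and 9.998 in Sox9 cKO. Every Sox9 cKO library had the higher ratio (log2 difference 1.88, two-sided exact permutation p = 0.1, the smallest possible). This ratio restates the Anxa2 and S100a10 levels already given, so its p-value is not a separate test. By contrast the ratio of S100a11 to Anxa1 was 4.90, 5.22 and 5.77 in controls and 5.32, 7.43 and 5.78 in Sox9 cKO, with overlapping groups.

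**Figure D4:**
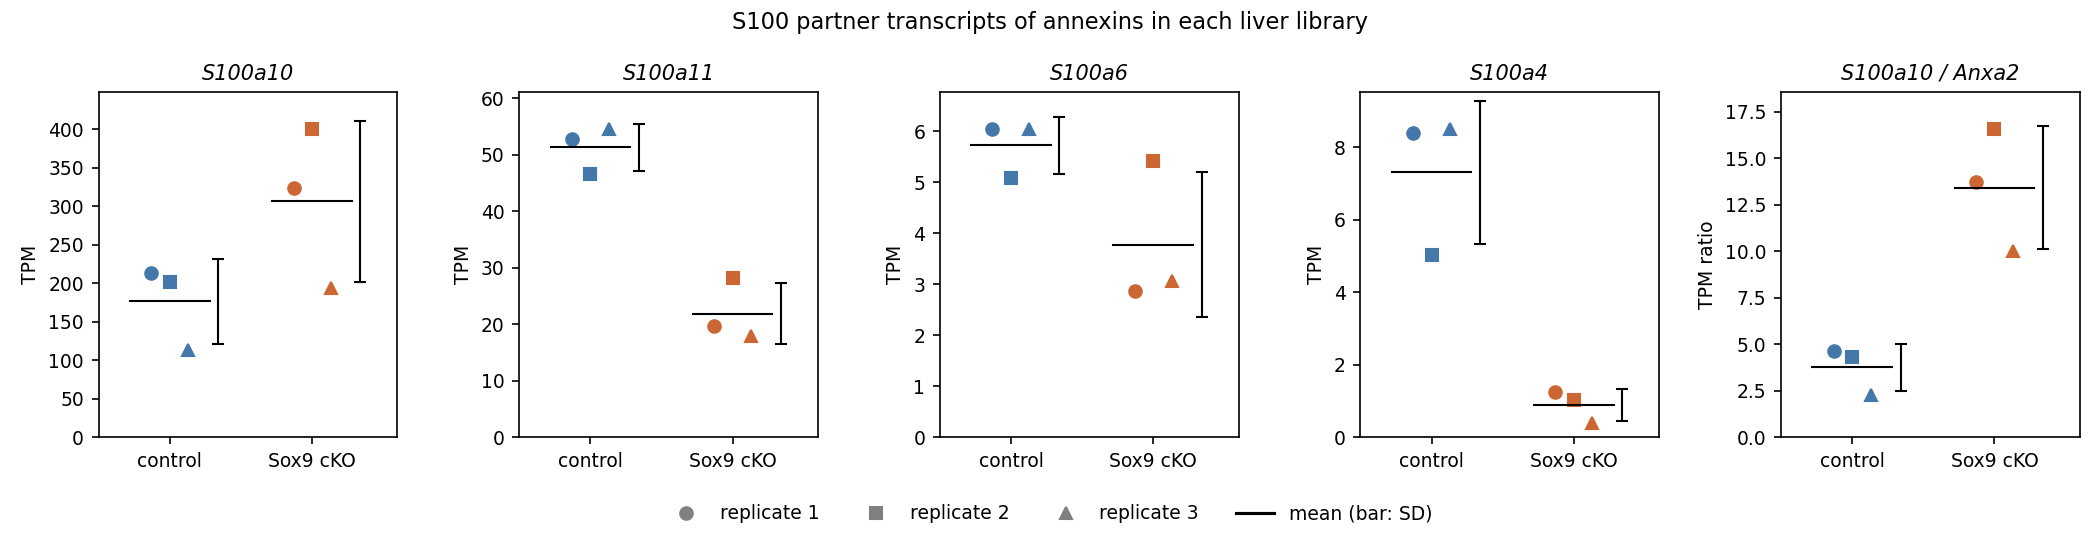
TPM of 4 S100 genes and, in the panel at the right, the TPM ratio of S100a10 to Anxa2 (y axes from 0) in 3 control and 3 Sox9 cKO libraries, marked by replicate, with mean and SD. S100a11 and S100a4 are lower in all Sox9 cKO libraries, and S100a10 overlaps between groups. The ratio lies between 9.998 and 16.6 in Sox9 cKO against 2.28 to 4.65 in controls, and restates the S100a10 and Anxa2 levels.

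Of the 8 penta-EF-hand and membrane-scission genes, which include the annexin A11 partner Pdcd6 and the annexin A7 partner Sri, 0 passed in limma, also at an unadjusted p below 0.05, with a median log2 fold change of -0.14. Capns1, the calpain small subunit and the most abundant of them, was at 114 ± 8.81 TPM in control livers and 115 ± 16.8 TPM in Sox9 cKO livers (limma adjusted p = 0.991). Of 5 tested membrane repair genes 0 passed, while 2 were lower at an unadjusted p below 0.05. Over all tested genes 27.2% were lower at that level, and 8.76% were called lower. The most abundant, Plscr1, a phospholipid scramblase, was at 18.2, 17.6 and 25.3 TPM in control livers and at 10.7, 16.3 and 10.3 TPM in Sox9 cKO livers (log2 fold change -0.70, SE 0.22, adjusted p = 0.0825).

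Of the 2 tested receptors of annexin A1, 1 fell, against 8.76% of all tested genes called lower. Fpr2, a formyl peptide receptor that annexin A1 activates, was at 2.82, 3.26 and 2.73 TPM in control livers and at 1.19, 0.45 and 1.61 TPM in Sox9 cKO livers (log2 fold change -1.19, SE 0.30, limma adjusted p = 0.0474). Its call was lost without any 1 control or without Sox9 cKO replicate 1 (adjusted p 0.0797 to 0.149). Fpr1, a related receptor of neutrophils and macrophages, overlapped between the groups, with 7.71 ± 2.90 and 3.51 ± 2.34 TPM (adjusted p = 0.133). The summed myeloid markers are given above, and their part in the receptor levels was not tested. Of 5 plasminogen system genes 0 passed in limma, while 3 were lower at an unadjusted p below 0.05, against 27.2% of all tested genes. Plg, plasminogen itself, which hepatocytes secrete and annexin A2 binds at cell surfaces, was at 1926 ± 77.8 and 1442 ± 123 TPM (-0.42, SE 0.14, adjusted p = 0.0980). Of 3 tested phospholipase A2 genes 0 passed, and 1 was lower at an unadjusted p below 0.05, again beside 27.2% of all tested genes. The most abundant was Pla2g6 at 15.7 ± 1.20 and 14.2 ± 1.59 TPM.

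The genes whose pattern over the 6 libraries was most like that of Anxa1, the member with the largest test statistic, were found by the mean absolute difference between their log2 deviations from the control mean. Genes with numbered Gm or Rik names, names starting with a digit and repeat rows of a symbol were left out of this ranking. The closest were Vill (0.0442), a villin-like actin-binding protein, Nck2 (0.0671), an adaptor of receptor tyrosine kinases, Loxl2 (0.0803), an enzyme that crosslinks collagen, Ptpn22 (0.0890), a phosphatase of immune cells, and Mmp14 (0.0916), a membrane-bound matrix protease, in log2 units. Their log2 fold changes ran from -1.49 to -1.24, and being near that of Anxa1 follows from how they were picked. By the same measure Anxa2 was nearest to Anxa3 (0.169) and Anxa7 to Anxa11 (0.0856), while Anxa1 and Anxa7 were farthest apart (0.679).

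**Figure D5:**
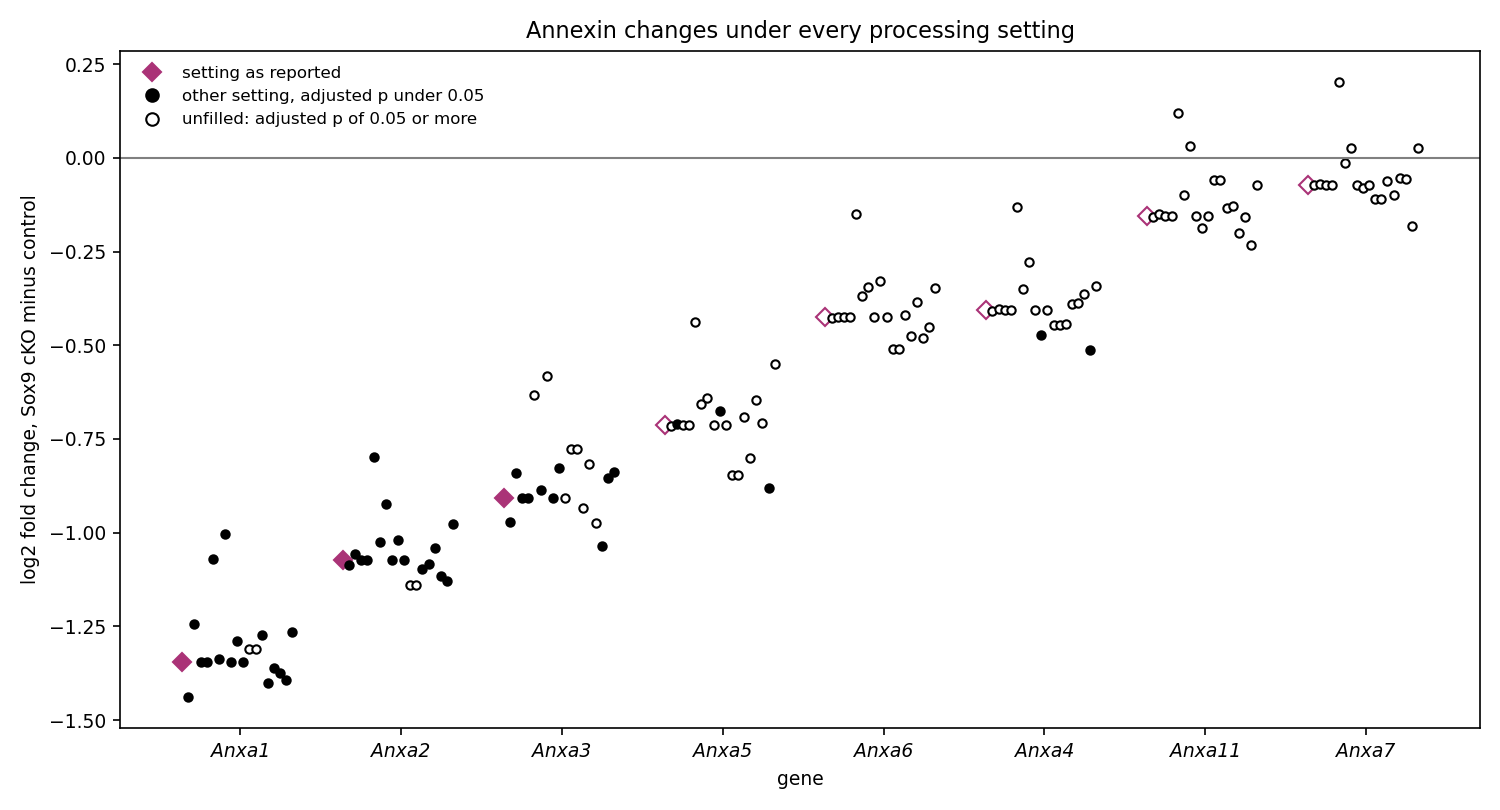
Log2 fold change of each annexin (y axis, Sox9 cKO minus control) as reported (diamonds) and under 18 other settings (circles), filled where the adjusted p is below 0.05. Anxa1 and Anxa2 are filled in 16 of 18 other settings, Anxa3 in 10, Anxa5 in 3 and Anxa4 in 2. Anxa6, Anxa7 and Anxa11 are never filled, and as reported Anxa7 and Anxa11 lie nearest 0.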

How the data were processed

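RNA of 6 mouse liver samples was sequenced by the authors as stranded mRNA libraries, with single-end reads of 75 nt, per the labels' protocols. Per the submitters' processing notes the tools were Trim Galore 0.5.0, cutadapt 1.16, STAR 2.6.0a and RSEM 1.3.1 with build mm10. Neither the gene annotation nor RSEM's strand setting is given in the sources used here, so overlapping antisense genes are uncertain. The authors deposited TPM, 1 column per library, each summing to about 1000000. TPM keeps no depth, so no counting error is given. Columns were matched to samples by the library numbers in the labels.

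The 12539 genes averaging 0.5 TPM or more over the 6 libraries were fitted in limma 3.58.1 (R 4.3.3) on log2(TPM + 0.5), with group as the only term, a variance trend, two-sided tests and Benjamini-Hochberg adjustment over all of them. Fold changes on this scale understate those of low genes. Single ratios were compared by exact permutation tests. The model was tested on simulated data. No library pair was identical.

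The annexins, partner lists, markers and alternatives were chosen with earlier results of these data known. Named were all members, the targeted gene, listed relatives and partners that passed or were the most abundant of their list, and the 5 genes most like the member with the largest moderated t. A partner gene first listed is not reported here and was left out of the list counts after results were known. Marker genes, Anxa8 to Anxa10, Pdcd6 and Sri were named beside counts. Same-numbered replicates did not deviate together (correlations -0.0446 to 0.00354). Positions are from GENCODE M21 (GRCm38) and promoters from RefSeq (GRCm38.p6). Figures used matplotlib 3.10.9.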

Additional observations from a re-analysis of the deposited data

How the results depend on the processing

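The direction of Anxa1, Anxa2, Anxa3, Anxa4, Anxa5 and Anxa6 held under all 18 other settings. The calls of Anxa1 and Anxa2 were lost under 2 of them, the sex-marker term and leaving out control replicates 1 and 2. Those 2 settings estimate the same difference, from control replicate 3 alone. Over all 18 settings the ranges were -1.44 to -1.004 for Anxa1 and -1.14 to -0.80 for Anxa2. The call of Anxa3 was lost under 8, among them leaving out any 1 control, with a range of -1.04 to -0.58. Anxa5 passed under 3 settings, Anxa4 under 2 and Anxa6 under 0. Anxa7 changed sign after median centring (0.20), quantile normalization (0.0274) and without Sox9 cKO replicate 3 (0.0269, within a leave-one-out range of -0.18 to 0.0269), and Anxa11 after median centring (0.12) and quantile normalization (0.0327). The cause was not tested.

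Annexins past the threshold numbered 5 with array weights, 0 once a sex-marker term was added, 0 when control replicates 1 and 2 were left out, and 2 to 5 when 1 library was left out, the 5 without Sox9 cKO replicate 2. In the sex-marker fit, 1 of those 2 limma fits with 0 calls, 5 annexins and 7 partners had an unadjusted p below 0.05. The share of all tested genes at that level was not computed for it, so these counts have no background. Partner genes numbered 1 after median centring, 2 after quantile normalization, 8 with array weights, 0 under each of those 2 fits, and 1 to 5 without 1 library. S100a11 passed in 14 of 18 settings, S100a4 in 16 and Fpr2 in 5. All called genes, 1202 as reported, numbered 402 after median centring, 335 after quantile normalization, 2564 with array weights, 648 with the replicate block, 70 and 33 under the same 2 fits, and 178 (without control replicate 2) to 1174 (without Sox9 cKO replicate 3) without 1 library. With the replicate block 2 annexins and 3 partners passed, and S100a10 was higher (adjusted p = 0.0432), but the numbers did not pair the samples. Depth is unknown, so the precision of genes below 1 TPM is not known.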
